A study of Homo sapiens with 4 samples.

Results

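The genes that encode the proteasome were examined in the human line SAS, from a squamous carcinoma of the tongue, after knockdown of STAU1, which encodes a protein that binds double-stranded RNA. Members were the protein-coding genes with a symbol of PSMA, PSMB, PSMC, PSMD, PSME, PSMF or PSMG followed by a number, which gave 50 of the 19916 protein-coding genes in a table of 67008 gene identifiers. They comprised 19 genes of the core particle, 9 of the base, 8 of the lid, 5 activators or inhibitors and 7 assembly factors. The rule also took PSMC3IP and PSME3IP1, which are named for binding a proteasome protein and are not subunits, and these were kept as a group apart. Another 51 genes with such a symbol were left out because they are not protein-coding, 44 of them pseudogenes.

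RNA sequencing counts were available from 4 libraries, 2 in which the cells expressed a luciferase shRNA as control (Ctrl) and 2 in which they expressed an shRNA to STAU1 (shSTAU1). All 4 libraries came from virus-infected cells labelled wild type, with total RNA prepared by an exome-capture kit, so a gene is seen only through captured fragments. The labels name the mouse line C3H 10T1/2 beside an oral cancer cell type, human as the organism and SAS in the growth protocol. Levels are given as CPM (counts relative to library size, after TMM scaling), except that the cell type markers in this paragraph are without TMM scaling. Of 8 markers of squamous epithelial cells, 8 exceeded 10 CPM in every library. Their sum was 7849 to 8622 CPM in Ctrl and 8677 to 11510 CPM in shSTAU1. The sums of the 6 fibroblast, 4 leukocyte and 3 endothelial markers did not exceed 23.0 CPM in any library. Library totals ran from 32206655 to 36301574 counts, and nothing says whether the libraries of a group came from separate cultures, so the p-values measure the spread between these libraries only. STAU1 had 249 and 251 CPM in the Ctrl libraries and 41.6 and 41.5 CPM in the shSTAU1 libraries. The targeted gene therefore fell by 2.59 on the log2 scale (SE 0.13, adjusted p = 0.00103, edgeR).

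The proteasome degrades proteins that carry ubiquitin chains. Its barrel-shaped core particle is built of outer rings of alpha subunits, which gate the entry, and inner rings of beta subunits, of which PSMB5, PSMB6 and PSMB7 hold the proteolytic sites. A regulatory particle caps the core, with a base of ATPases that unfold the substrate and a lid whose subunit PSMD14 removes ubiquitin. Dedicated chaperones assemble these parts, alternative activators can replace the regulatory particle, and interferon-induced cells exchange the catalytic subunits for PSMB8, PSMB9 and PSMB10. The subunits are made in fixed proportions, and in human cells the transcription factor NFE2L1 raises their genes together when the proteasome is impaired.

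RefSeq promoters (build GRCh38.p14, from 250 bases before to 50 bases after the start) matched 44 of the 50 members. PSMA7, PSMB1, PSMB6, PSMB7, PSMD4 and PSMG3 had no entry. The promoters of the 3 members with the highest log2 fold change, PSMA4 (chr15:78540155-78540454, plus strand), PSMD10 (chrX:108091493-108091792, minus strand) and PSMG1 (chr21:39183402-39183701, minus strand), are shown with that of PSMD1 (chr2:231056617-231056916, plus strand), the lowest of the members that share no exon with another gene on the same strand. Capitals mark CCAAT, TGACNNNGC and TGAGNNNGC on either strand, the last of which are core letters of the element that NFE2L1 and related factors bind.
PSMA4: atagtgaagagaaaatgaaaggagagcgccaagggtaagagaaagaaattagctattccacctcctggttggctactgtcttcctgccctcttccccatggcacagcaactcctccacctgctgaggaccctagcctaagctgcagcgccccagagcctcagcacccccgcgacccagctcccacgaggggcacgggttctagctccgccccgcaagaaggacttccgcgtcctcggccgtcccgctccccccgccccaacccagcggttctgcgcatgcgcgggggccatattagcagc
PSMD10: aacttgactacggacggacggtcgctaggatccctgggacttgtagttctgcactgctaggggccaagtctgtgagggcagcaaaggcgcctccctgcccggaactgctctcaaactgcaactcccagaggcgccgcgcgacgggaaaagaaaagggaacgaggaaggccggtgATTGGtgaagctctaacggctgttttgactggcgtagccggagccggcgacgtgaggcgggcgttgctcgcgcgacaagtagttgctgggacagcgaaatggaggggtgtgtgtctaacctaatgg
PSMG1: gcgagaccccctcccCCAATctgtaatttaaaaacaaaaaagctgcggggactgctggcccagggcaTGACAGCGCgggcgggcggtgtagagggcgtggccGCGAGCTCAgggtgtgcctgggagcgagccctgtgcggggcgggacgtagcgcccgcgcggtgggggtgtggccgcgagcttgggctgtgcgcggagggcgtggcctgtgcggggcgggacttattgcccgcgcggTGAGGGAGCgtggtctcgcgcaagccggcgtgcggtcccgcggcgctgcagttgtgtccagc
PSMD1: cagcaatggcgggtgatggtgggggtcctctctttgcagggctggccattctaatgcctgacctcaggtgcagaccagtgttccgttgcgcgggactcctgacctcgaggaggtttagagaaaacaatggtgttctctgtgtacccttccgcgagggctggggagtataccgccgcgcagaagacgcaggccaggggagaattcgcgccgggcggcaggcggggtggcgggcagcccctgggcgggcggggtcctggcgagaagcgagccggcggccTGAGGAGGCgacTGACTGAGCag
PSMG1 carried 3 of the NFE2L1-type matches and 1 CCAAT, PSMD10 carried 1 CCAAT, and none of these letters was in the window of PSMA4. In PSMD1 both NFE2L1-type matches lay after the start. TGACNNNGC or TGAGNNNGC was found in 20 of the 44 member promoters (45.5%) and in 29.4% of all 27305 promoters of 300 bases. CCAAT was found in 21 of the 44 (47.7%) and in 35.7% of all, and CCGGAAG, letters that ETS factors bind, in 14 (31.8%) and in 10.7% of all. The tested members with the NFE2L1-type letters had a median log2 fold change of 0.25, and those without them had 0.24, over 36 members with a promoter. With and without CCAAT the medians were 0.29 and 0.21, and with and without CCGGAAG they were 0.18 and 0.24. These differences were not tested.

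After STAU1 knockdown the proteasome genes lay mostly a little above control, and none of them passed the threshold. Of the 50 members, 42 had enough counts to be tested, and the other 8 were listed at 0 in every library. The median log2 fold change of the 42 was 0.25, from -0.69 for PSMA2 to 0.66 for PSMA4, while the median over all 14303 tested genes was 0.01. The log2 fold change was above 0 for 35 of the 42 members, against 50.4% of all tested genes. In 21 members both shSTAU1 libraries lay above both Ctrl libraries, as in 28.5% of all tested genes, and in 4 members both lay below, as in 28.0%. No member had an adjusted p under 0.05 with edgeR, against 2.60% of all tested genes. At an unadjusted p under 0.05 there were 10 members higher, against 12.9% of all genes, and 1 lower, PSMA2, against 11.6%. Limma-voom also called 0 members, and DESeq2 called 2, PSMA4 (adjusted p = 0.00668) and PSMG1 (adjusted p = 0.0231), where it called 12.0% of all genes. At an adjusted p under 0.10 with edgeR there were 3 members, PSMA4, PSMG1 and PSMD10, against 11.1% of all genes.

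The size of the difference rested on 1 library. The members took 0.460% and 0.474% of the counts in the Ctrl libraries, 0.461% in shSTAU1 replicate 1 and 0.578% in shSTAU1 replicate 2. Their summed level was 4519 and 4661 CPM in Ctrl and 4659 and 5941 CPM in shSTAU1, so that only replicate 2 of shSTAU1 lay above the Ctrl libraries by more than they differed from each other. In 39 of the 42 tested members shSTAU1 replicate 2 was above shSTAU1 replicate 1, with a median log2 ratio of 0.30, while the median over all tested genes was -0.01. Between the Ctrl libraries the members had a median log2 ratio of 0.02. Without shSTAU1 replicate 2 the members' median log2 fold change was 0.08 and edgeR called 1 member, PSMA4, against 14.5% of all genes. In that fit 9 members with a log2 fold change above 0 turned below 0, namely PSMB6, PSMC1, PSMC2, PSMC3, PSMD2, PSMD8, PSMD11, PSMD13 and PSME4. Without shSTAU1 replicate 1 the median was 0.39 and 17 members were called, 17 of them higher, against 18.5% of all genes. In these fits the lone library was assumed to vary like the other group.

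**Figure D1:**
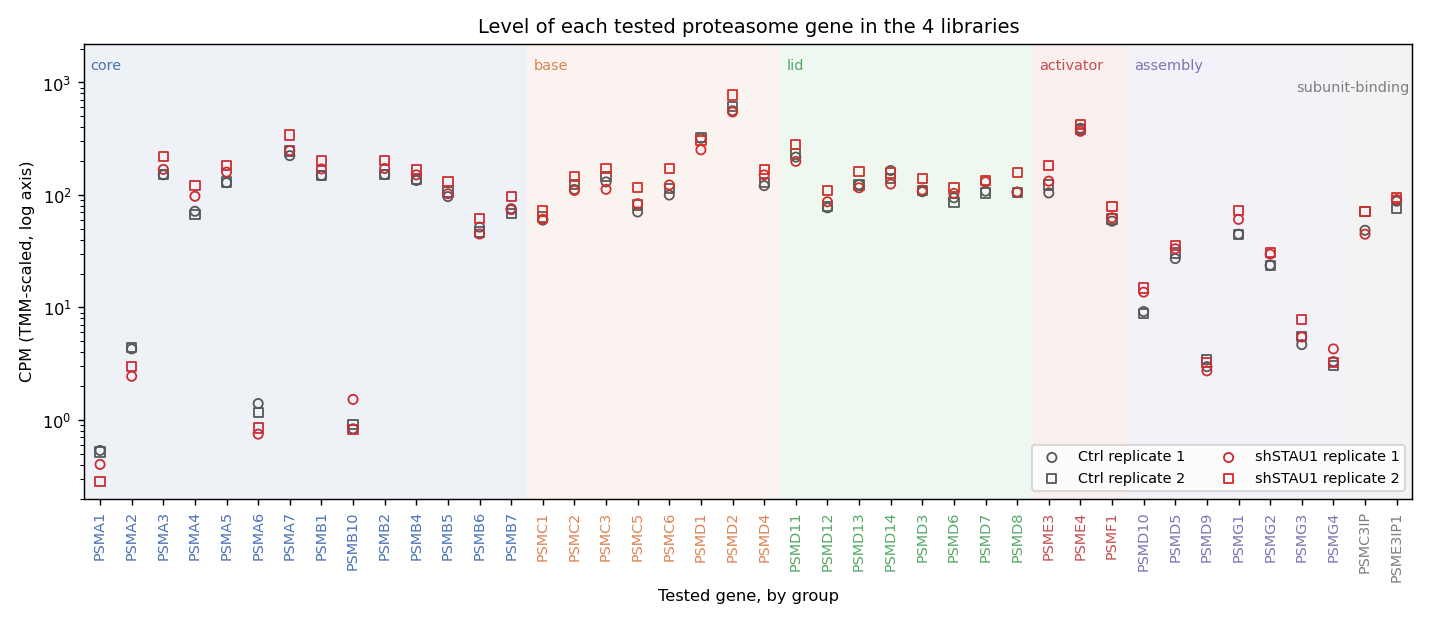
TMM-scaled CPM (log axis) of the 42 tested proteasome genes in the 4 libraries, with genes on the horizontal axis grouped as core, base, lid, activator, assembly and subunit-binding, and 1 point per library. The squares of shSTAU1 replicate 2 lie above the circles of shSTAU1 replicate 1 in 39 of the 42 genes, and PSMA1, PSMA2, PSMA6, PSMB10, PSMD9 and PSMG4 stay below 5 CPM in every library.

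The core particle had 14 tested genes of 19, with a median log2 fold change of 0.27. Both shSTAU1 libraries lay above both Ctrl libraries in 7 and below them in 3, against 28.5% and 28.0% of all tested genes. Its summed level was 1241 and 1262 CPM in Ctrl and 1394 and 1734 CPM in shSTAU1, which did not overlap.

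Among the alpha subunits, PSMA4 had 71.5 and 67.0 CPM in Ctrl and 97.4 and 121 CPM in shSTAU1. This was the highest log2 fold change among the tested members together with PSMD10, at 0.66 (SE 0.15, 95% interval 0.31 to 1.01, adjusted p = 0.0635, edgeR), and the groups did not overlap. PSMA5 had 129 and 130.3 CPM in Ctrl and 160 and 183 CPM in shSTAU1. Its log2 fold change was 0.41 (SE 0.13, adjusted p = 0.115), again without overlap. PSMA3, at 0.36, and PSMA7, at 0.33, also had both shSTAU1 libraries above both Ctrl libraries, with adjusted p-values of 0.204 and 0.278.

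The other 3 tested alpha genes were scarce and lower. PSMA2 had 4.28 and 4.43 CPM in Ctrl and 2.44 and 2.97 CPM in shSTAU1, from 85 to 145 counts per library, and a log2 fold change of -0.69 (SE 0.29, adjusted p = 0.197, edgeR). PSMA6 had 1.40 and 1.16 CPM in Ctrl and 0.75 and 0.85 CPM in shSTAU1, a log2 fold change of -0.68 (SE 0.45, adjusted p = 0.382). PSMA1 had 18 and 17 counts in Ctrl and 14 and 10 counts in shSTAU1, a log2 fold change of -0.62 (SE 0.59, adjusted p = 0.551). In each of the 3 the shSTAU1 libraries lay below the Ctrl libraries. These levels sit far under those of the other alpha subunits, although the alpha ring needs each of them in equal number. In the GENCODE 29 annotation 53.2% of the PSMA1 transcript, 52.5% of PSMA2 and 81.0% of PSMA6 is also exon of another protein-coding entry on the same strand, as are 45.3% of PSMB10 and 43.8% of PSMD9. Together with PSMG4 these 5 had the lowest mean levels in Ctrl of the tested members. Their median log2 fold change was -0.62, and the part that shared exons play in their counts was not tested. The entries that share exons with PSMA1, PSMA2 and PSMA6 were themselves listed at 0 in all 4 libraries. That of PSMB10 had 5 and 3 counts in Ctrl and 1 and 0 in shSTAU1. CFAP251, 1 of those sharing exons with PSMD9, had 780 and 990 counts in Ctrl and 1008 and 1069 in shSTAU1. The 37 tested members without such sharing had a median of 0.25, and 34 of them were above 0.

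Of the constitutive beta subunits, 6 of 7 were tested and 6 had a log2 fold change above 0, with a median of 0.25 and a range of 0.12 to 0.32. The catalytic subunit PSMB5, which has chymotrypsin-like activity, had 96.7 and 106 CPM in Ctrl and 103 and 131 CPM in shSTAU1. PSMB6, with caspase-like activity, had 51.8 and 46.9 CPM in Ctrl and 45.0 and 62.1 CPM in shSTAU1. PSMB7, with trypsin-like activity, had 75.5 and 68.7 CPM in Ctrl and 74.1 and 97.5 CPM in shSTAU1. The groups overlapped for each catalytic subunit, and their log2 fold changes were 0.20 (SE 0.16), 0.12 (SE 0.18) and 0.25 (SE 0.17), with adjusted p-values of 0.457, 0.725 and 0.383 (edgeR). The structural subunits PSMB1, PSMB2 and PSMB4 did not overlap between the groups, with log2 fold changes of 0.32, 0.29 and 0.24 and adjusted p-values of 0.195 to 0.281.

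The inducible catalytic genes were at or near 0. PSMB8 and PSMB9, which replace PSMB5 and PSMB6, were listed at 0 in all 4 libraries. PSMB10, which replaces PSMB7, had 28 and 30 counts in Ctrl and 53 and 29 counts in shSTAU1, and the libraries overlapped (log2 fold change 0.42, SE 0.50, adjusted p = 0.639, edgeR). PSMB11, known from the thymus, and PSMA8, known from the testis, were listed at 0 as well.

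The zeros of other members need care, since cells cannot do without PSMB3 or the ATPase PSMC4. PSMB3, PSMC4 and the activator genes PSME1 and PSME2 were listed at 0 in all 4 libraries together with their neighbours on the chromosome. PSMB3 lies in a run of 8 protein-coding genes at 0 on chromosome 17. RPL23, the next gene, had 63570 counts over the 4 libraries, and SRCIN1, the gene before the run, had 1. PSMC4 lies in a run of 9 on chromosome 19 that includes FBL, the nucleolar methyltransferase fibrillarin. PSME1 and PSME2 lie in a run of 36 on chromosome 14 that includes NEDD8 and IPO4. Around PSMB8 and PSMB9 on chromosome 6, 28 of the 37 protein-coding genes within 500000 bases were at 0 and 36 had at most 10 counts over the 4 libraries. Of all protein-coding genes listed, 25.0% were at 0 in the 4 libraries. The zeros of these members are therefore given as listed values, and no level or upper limit was read from them.

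**Figure D2:**
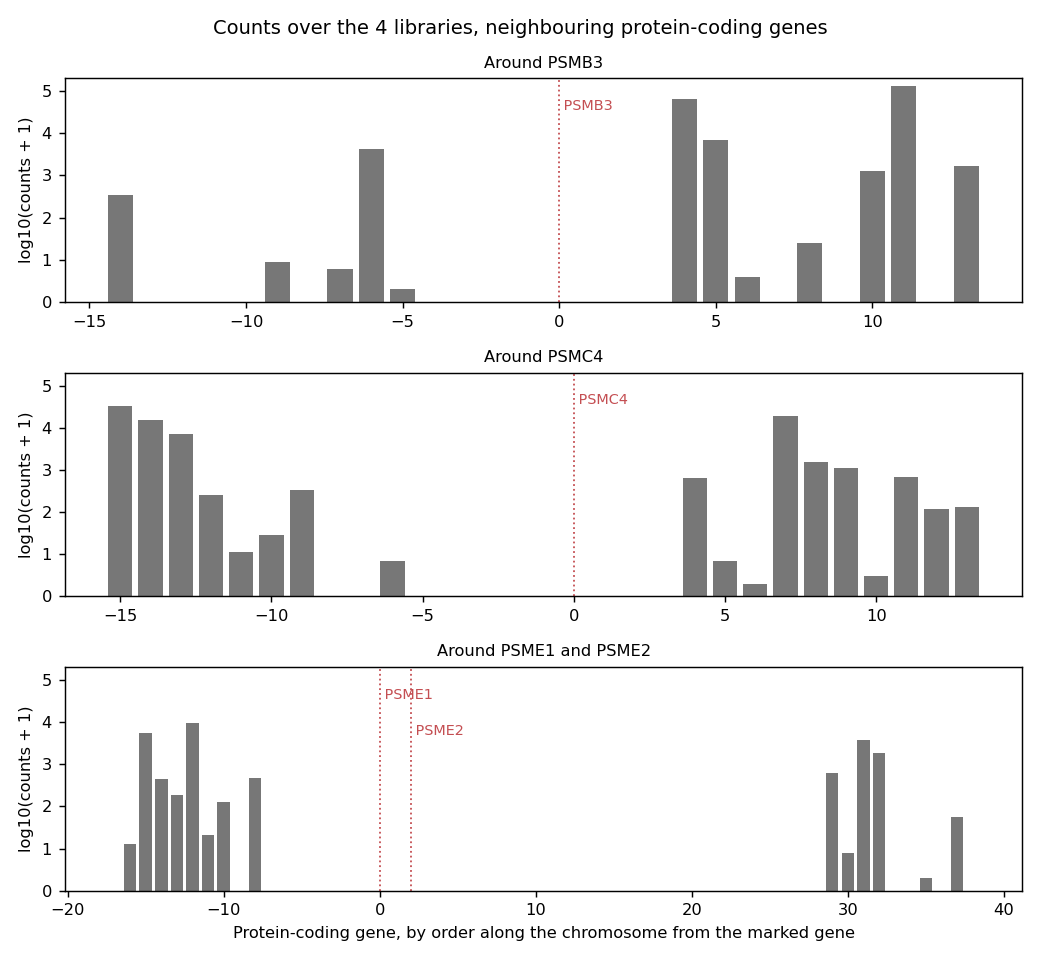
Counts summed over the 4 libraries, as log10(counts + 1), for protein-coding genes in their order along the chromosome (horizontal axis, counted from the marked gene) around PSMB3, PSMC4, and PSME1 with PSME2, each bar being 1 gene. The marked genes lie inside unbroken runs of 8, 9 and 36 genes at 0. The gene before each run had 1 count (SRCIN1), 6 counts (LGALS14) and 479 counts (DHRS4L2). The gene after each run had 63570 (RPL23), 630 (MAP3K10) and 619 counts (NYNRIN).

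In the base, 8 of 9 genes were tested, with a median log2 fold change of 0.15, and both shSTAU1 libraries lay above both Ctrl libraries in 3 and below them in 1, against the same 28.5% and 28.0% of all genes. PSMD4, a receptor for ubiquitin chains, had 121 and 129.5 CPM in Ctrl and 151 and 169 CPM in shSTAU1. Its log2 fold change was 0.35 (SE 0.13, adjusted p = 0.152, edgeR), without overlap. The ATPase genes PSMC5 and PSMC6 also did not overlap, at 0.40 and 0.46, with adjusted p-values of 0.227 and 0.174. PSMC1, PSMC2 and PSMC3, ATPase genes too, overlapped, with log2 fold changes of 0.11, 0.11 and 0.04. In the annotation 27.2% of the PSMC5 transcript is also exon of FTSJ3 on the other strand, and 82.1% of PSMC1 is exon of NRDE2. FTSJ3 had 2098 and 2629 counts in Ctrl and 2381 and 3711 in shSTAU1. NRDE2 had 1169 and 1518 counts in Ctrl and 1095 and 1247 in shSTAU1. Whether reads were shared was not tested. The scaffold gene PSMD2 had the highest level of all members, 561 and 608 CPM in Ctrl and 547 and 775 CPM in shSTAU1, with overlap. PSMD1, the other scaffold gene, had 319 and 326 CPM in Ctrl and 252 and 307 CPM in shSTAU1. It was the only base gene with both shSTAU1 libraries below both Ctrl libraries, at a log2 fold change of -0.20 (SE 0.14, adjusted p = 0.391). The summed level of the base was 1473 and 1592 CPM in Ctrl and 1439 and 1928 CPM in shSTAU1, so the groups overlapped.

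All 8 lid genes were tested, with a median log2 fold change of 0.26, and in 4 of them both shSTAU1 libraries lay above both Ctrl libraries, against 28.5% of all genes. PSMD7, the structural partner of the deubiquitinase PSMD14, had 108 and 104 CPM in Ctrl and 131 and 135 CPM in shSTAU1. Its log2 fold change was 0.33 (SE 0.12, adjusted p = 0.16, edgeR). PSMD14 itself had 165 and 141 CPM in Ctrl and 125 and 157 CPM in shSTAU1, which overlapped (log2 fold change -0.12, SE 0.16, adjusted p = 0.676). PSMD12, PSMD6 and PSMD3 had both shSTAU1 libraries above both Ctrl libraries, at 0.34, 0.29 and 0.22, with adjusted p-values of 0.221 to 0.408. PSMD8, PSMD11 and PSMD13 overlapped, at 0.33, 0.10 and 0.18. Between shSTAU1 replicate 1 and Ctrl replicate 1 the lid had a median log2 ratio of 0.02, and between shSTAU1 replicate 2 and Ctrl replicate 2 it had 0.39.

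Of the activators and inhibitors 3 of 5 were tested. PSME3, a nuclear activator that opens the core without ATP, had 104 and 123 CPM in Ctrl and 133 and 183 CPM in shSTAU1. The groups did not overlap, and the log2 fold change was 0.48 (SE 0.18, 95% interval 0.06 to 0.90, adjusted p = 0.16, edgeR). PSME4, the large activator linked to histone degradation, had 392 and 379 CPM in Ctrl and 368 and 420 CPM in shSTAU1, which overlapped (log2 fold change 0.03, SE 0.13, adjusted p = 0.902). PSMF1, which inhibits the core in vitro, had 58.5 and 61.1 CPM in Ctrl and 62.7 and 79.0 CPM in shSTAU1. It did not overlap, with a log2 fold change of 0.25 (SE 0.15, adjusted p = 0.364).

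The assembly factors had the highest group median, 0.36 over 7 tested genes, and their summed level differed least, in proportion, between the shSTAU1 libraries. It was 116 and 119 CPM in Ctrl and 149.8 and 168 CPM in shSTAU1, without overlap. PSMG1, a chaperone of the alpha ring, had 44.8 and 44.5 CPM in Ctrl and 60.6 and 72.6 CPM in shSTAU1. Its log2 fold change was 0.58 (SE 0.15, 95% interval 0.23 to 0.92, adjusted p = 0.0748, edgeR). PSMG2, which forms a dimer with PSMG1, had a log2 fold change of 0.36 (SE 0.15, adjusted p = 0.195), without overlap. In the annotation 17.3% of the PSMG2 transcript is also exon of CEP76 on the other strand. CEP76 had 476 and 394 counts in Ctrl and 683 and 681 counts in shSTAU1, and whether reads were shared was not tested. PSMD10, a chaperone of the base also called gankyrin, had 9.19 and 8.89 CPM in Ctrl and 13.7 and 14.9 CPM in shSTAU1. Its log2 fold change was 0.66 (SE 0.19, 95% interval 0.21 to 1.11, adjusted p = 0.0961), without overlap. PSMD5, another base chaperone, lay at 0.25 without overlap, and PSMD9, PSMG3 and PSMG4 overlapped, at -0.11, 0.37 and 0.25. Without shSTAU1 replicate 2 the assembly genes had a median of 0.33, the core 0.10, the activators 0.06, the lid 0.01 and the base -0.07. Without shSTAU1 replicate 1 the activators had 0.412, the assembly genes and the core 0.397, the lid 0.389 and the base 0.369. Whether the groups differ from each other was not tested.

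The genes PSMC3IP, a recombination factor, and PSME3IP1, which binds PSME3, had log2 fold changes of -0.05 and 0.18, with adjusted p-values of 0.93 and 0.445 (edgeR).

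**Figure D3:**
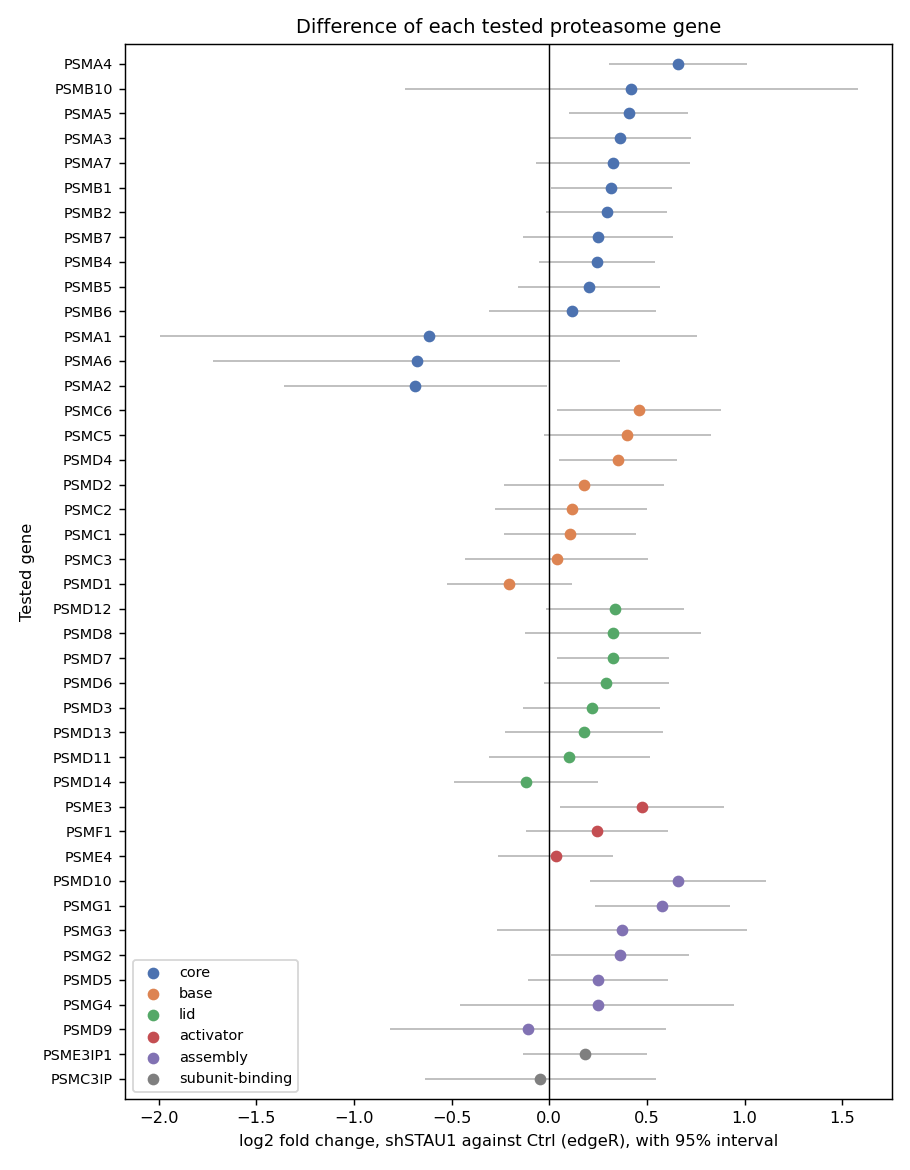
Log2 fold change of shSTAU1 against Ctrl from edgeR (horizontal axis) with its 95% interval (grey line) for the 42 tested genes, coloured by group and sorted within it. Most points lie between 0 and 0.66, and the lowest 3 are the core genes PSMA1, PSMA2 and PSMA6.

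Levels per length were compared as CPM per kilobase of the principal transcript, on the means of the 2 Ctrl libraries. The constitutive beta subunits tested ran from 56.4 for PSMB2 to 160 for PSMB1, with a median of 76.0. The tested alpha subunits ran from 0.35 for PSMA1 to 236 for PSMA7. The base had a median of 68.1 and the lid 62.3, with PSMD2 highest in the base at 169 and PSMD14 highest in the lid at 78.3. The assembly factors were lower, with a median of 5.85, and PSMG1 was the highest of them at 20.7. These values depend on the transcript taken for the length, which was 4411 bases for PSMA4 and 996 bases for PSMA7. The exome-capture kit also limits comparisons between genes, since a gene is seen only through captured fragments. For PSMA1, 53.2% of the transcript is also exon of another entry on the same strand.

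**Figure D4:**
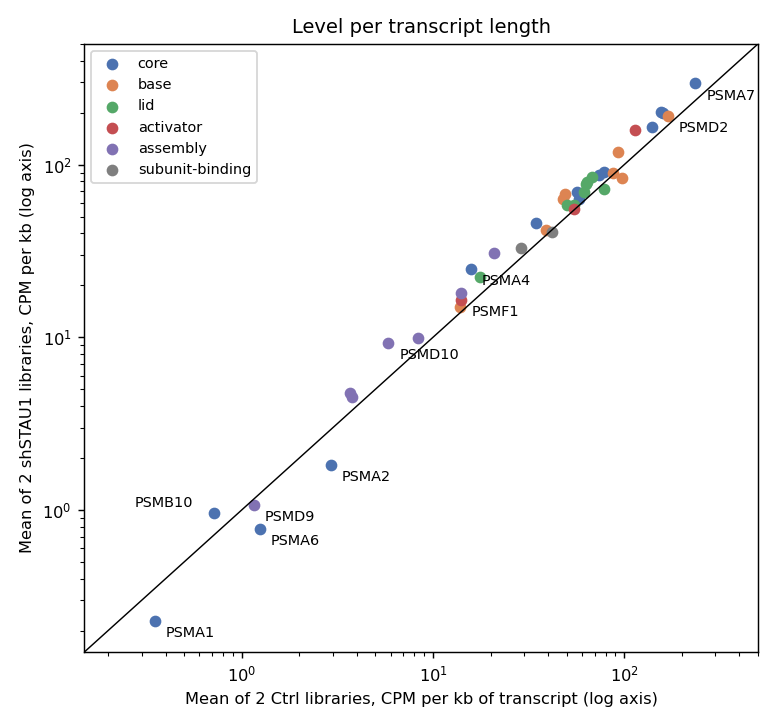
Level per kilobase of transcript in CPM (log axes), mean of the 2 shSTAU1 libraries (vertical) against mean of the 2 Ctrl libraries (horizontal), for the 42 tested genes, with the line of equal level. Most genes lie just above the line, PSMA1, PSMA2 and PSMA6 lie below it, and PSMA7 is highest at 236 in Ctrl.

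The principal transcripts of the tested members were short, with a median of 1625 bases against 2869 bases over all tested genes, and the difference between the groups moved with length across the transcriptome. All tested genes with transcripts of 1000 to 1500 bases had a median log2 fold change of 0.16, those up to 1000 bases had 0.06, and those over 6000 bases had -0.10. The 8 members of 1000 to 1500 bases had 0.25, and the 5 members of 4000 to 6000 bases had 0.24, where all genes of that length had -0.04. With library trends over transcript length and GC content removed, the members' median was 0.16, with 33 above 0 and 0 called. The median of the core was then 0.09, that of the lid 0.155 and that of the assembly factors 0.24. The base had 0.187 and the activators 0.285, where they had 0.146 and 0.245 without the correction.

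**Figure D5:**
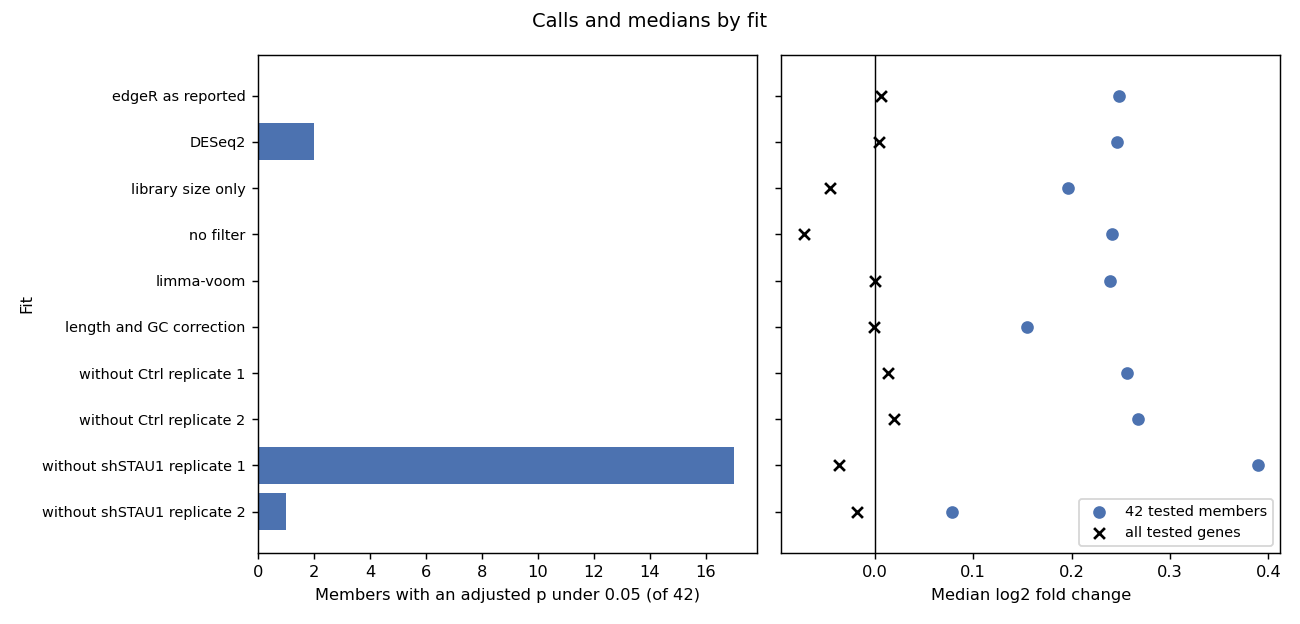
Number of members with an adjusted p under 0.05 (left, bars) and median log2 fold change (right, circles for the 42 members, crosses for all tested genes) under each fit named on the vertical axis. The count is 0 as reported, 17 without shSTAU1 replicate 1 and 1 without shSTAU1 replicate 2, and the members' median moves between 0.08 and 0.39.

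The wider ubiquitin-proteasome pathway was read from 29 genes that the rule did not take, of which 28 were tested. Their median log2 fold change was 0.18, with 22 above 0, against 50.4% of all tested genes. At an unadjusted p under 0.05 there were 9 higher and 1 lower, against 12.9% and 11.6% of all genes. The adjusted threshold was passed by 1 of the 28, a share near the 2.60% of all genes. This was SEM1, a small lid subunit whose symbol lies outside the rule, with 84.5 and 83.2 CPM in Ctrl and 129 and 138 CPM in shSTAU1. SEM1 rose by a log2 fold change of 0.67 (SE 0.13, adjusted p = 0.0408, edgeR). Leaving out 1 library moved its log2 fold change between 0.61 and 0.73. With limma-voom it was 0.67 (adjusted p = 0.0418), where 2.54% of all genes were called. Without a filter on low counts it was 0.67 (adjusted p = 0.105, edgeR), where 0.0443% of all genes were called. The length and GC correction gave 0.48 (adjusted p = 0.0809, edgeR), where 0.986% were called. The polyubiquitin gene UBB had 1316 and 1511 CPM in Ctrl and 1846 and 2293 CPM in shSTAU1, a log2 fold change of 0.55 (SE 0.15, adjusted p = 0.0819). The groups did not overlap. UBB is built of near-identical repeats that other genes share, so its counts are uncertain. DESeq2 called UBB (adjusted p = 0.0202) and SEM1 (adjusted p = 0.00145). NFE2L1, the activator of proteasome genes, had 97.8 and 91.1 CPM in Ctrl and 74.7 and 64.2 CPM in shSTAU1. Its log2 fold change was -0.44 (SE 0.14, adjusted p = 0.112), with both shSTAU1 libraries below both Ctrl libraries. When 1 library was left out it ran from -0.55 without shSTAU1 replicate 1 to -0.35 without shSTAU1 replicate 2. UBQLN2, a shuttle for ubiquitinated proteins, was listed at 0.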

How the data were processed

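RNA was captured with an exome kit and sequenced, and the authors deposited whole-number read counts per gene without normalization. The submitters' processing notes name Partek and hg38. The aligner, the counting program and its strand setting are not given in the sources used here. A member that overlaps a gene on the other strand (among them PSMC1, PSMC5, PSMC3IP, PSMD7, PSMD13 and PSMG2) may therefore share its reads. Every sample column was mapped to a library. Identifiers without version were matched to GENCODE 29 (GRCh38) and a symbol table, and 8447 identifiers outside that release held 0.132% of the counts. Counts were filtered with filterByExpr at its defaults, scaled by TMM and compared with edgeR 4.0.16 in R 4.3.3 by its quasi-likelihood test, adjusted by Benjamini-Hochberg over 14303 genes and a threshold of 0.05. DESeq2 1.42.0, limma-voom (limma 3.58.1), the replicate number as a block, library size alone, no filter, a length and GC correction, other thresholds and leaving out each library were alternatives. The models were tested on simulated data. Length is that of 1 transcript per gene, APPRIS principal where given. Ratios between single libraries use a pseudocount of 0.1 CPM. Libraries of a group differed beyond sampling noise, with a chi-square over its degrees of freedom of 25.4 in Ctrl and 61.6 in shSTAU1. An exact permutation test of 2 against 2 libraries cannot go below a two-sided p of 0.333. Genes named with their values in every library are the members with the lowest p-values, the 3 highest and 3 lowest log2 fold changes, the catalytic subunits with their inducible counterparts and the activators; STAU1, NFE2L1 and the leading genes of the pathway list. PSMD1, PSMD2 and PSMD14 were added after their values were seen. The members and lists were chosen with earlier results of these data known. Of the leading pathway genes, 1 is left out of the text.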

Additional observations from a re-analysis of the deposited data

How the results depend on the processing

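Limits come first. There were 2 libraries per group, with a biological coefficient of variation of 19.15%. The 95% interval of the log2 fold change excluded 0 in 11 of the 42 tested members. These 11 had an unadjusted p under 0.05 (edgeR), as had 3509 of all 14303 tested genes. The log2 fold change of PSMA1 rests on 10 to 18 counts per library.

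The edgeR count of 0 members past the threshold became 2 with DESeq2, 3 at an adjusted p under 0.10 and 3 when a 1.5-fold change and an unadjusted p under 0.05 were asked for, a rule that took 14.7% of all genes. It ran from 0 to 17 when 1 library was left out. For the 29 pathway genes the count of 1 became 3 with DESeq2, 0 without a filter, 0 with the length and GC correction and 3 at an adjusted p under 0.10, and it ran from 0 to 7 when 1 library was left out. Of all tested genes, 2.60% were called with edgeR, 12.0% with DESeq2 and 11.1% at an adjusted p under 0.10. Without a filter 0.0443% were called, and with the length and GC correction 0.986%. The share of all genes called also rose when either shSTAU1 library was left out and fell when either Ctrl library was. The calls over all genes thus changed between the fits too, and the counts of members did not follow them in every fit. The cause of the changes in these counts was not tested.

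The samples share only a replicate number, and same-numbered libraries deviated together with a correlation of 0.271 over all genes. With the replicate number as a block 16 members and 11 pathway genes were called, where 28.6% of all genes were, and with the block and the length and GC correction 6 members and 9 pathway genes, where 20.6% of all genes were. In the first of these fits 16 members were higher and 0 lower. In the second 5 were higher and 1 lower, PSMA2 (-0.89, adjusted p = 0.0392, edgeR). PSMA4 and PSMG1 were among the members called in both block fits. NFE2L1 was also called in both, lower, with adjusted p-values of 0.00159 and 0.0251.

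The members' median of 0.25 ran from 0.078 to 0.389 when 1 library was left out. It was 0.25 over the members with under 10% of exons shared on the same strand, an alternative chosen after seeing the data. Leaving out 1 library moved the median of the core between 0.105 and 0.397, of the base between -0.069 and 0.369, of the lid between 0.007 and 0.389, of the activators between 0.059 and 0.412 and of the assembly factors between 0.306 and 0.397. The median of the core was 0.089 with the length and GC correction and 0.083 with the block added. The median of the lid was 0.023 in the replicate 1 libraries alone. The median of the assembly factors was 0.309 with library size alone, 0.237 with the length and GC correction, 0.237 with the block added, 0.327 in the replicate 1 libraries and 0.393 in the replicate 2 libraries.

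STAU1 kept its direction in every fit, from -2.598 to -2.577 when 1 library was left out, and without Ctrl replicate 1 no gene of the table passed the threshold (STAU1 at -2.598, adjusted p = 0.49).

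For single members and the pathway genes SEM1, UBB and NFE2L1, 419 of the repeated values kept direction and side of the threshold, 49 passed it, 4 lost it, all of them of SEM1, and 22 changed sign. Log2 fold changes that changed sign when 1 library was left out, with their range, were those of PSMB10 (-0.081 to 0.787), PSMB6 (-0.145 to 0.343), PSMC1 (-0.032 to 0.235), PSMC2 (-0.122 to 0.319), PSMC3 (-0.309 to 0.319), PSMC3IP (-0.424 to 0.258), PSMD11 (-0.182 to 0.345), PSMD13 (-0.098 to 0.409), PSMD14 (-0.303 to 0.045), PSMD2 (-0.105 to 0.418), PSMD8 (-0.008 to 0.601), PSMD9 (-0.245 to 0.016) and PSME4 (-0.076 to 0.133). With library size alone PSMC3 (-0.018) and PSME4 (-0.022) changed sign, with the length and GC correction PSMB6 (-0.091) and PSMC3 (-0.114), and with the block added PSMB6 (-0.105) and PSMC3 (-0.145).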

Other observations

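Some pseudogenes of the proteasome genes, which the rule leaves out, were also counted. PSMC1P1, a processed pseudogene of the ATPase gene PSMC1 on chromosome 3, had 786 and 796 counts in Ctrl and 786 and 1158 counts in shSTAU1 (log2 fold change 0.21, adjusted p = 0.553, edgeR). PSMC1 itself had 2010 and 2086 counts in Ctrl and 2117 and 2550 counts in shSTAU1, and how reads were divided between the near-identical copies was not tested. PSME2P2, a pseudogene of the activator gene PSME2 on chromosome 13, had 83 and 85 counts in Ctrl and 99 and 131 counts in shSTAU1, whereas PSME2 was listed at 0.

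The antisense RNA PSMA3-AS1 on chromosome 14 had 132 and 145 counts in Ctrl and 97 and 109 counts in shSTAU1, without overlap (log2 fold change -0.51, adjusted p = 0.308, edgeR), while PSMA3 lay at 0.36.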
